A study of Drosophila melanogaster with 6 samples.

Results

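The adult male fly at rest is described here by the whole-body RNA of Drosophila melanogaster males that had met no female. Of the 6 arrays in the series, the 3 labelled as unexposed were taken, and every probe set on them that is not a control was kept, which gave 13966 of 14010 rows. Each array was hybridized with RNA from 1 pool of about 12 wild-type Canton-S males that were 4 days old, virgin and kept in vials of their own before collection. These males went through the same handling as courting males for 5 min but with no female in the vial, and the other 3 arrays of the series hold males that courted a female. A pooled whole body limits what can be read from a signal: tissues enter by their mass and their RNA content, so fewer cells of a type and less RNA per cell cannot be told apart.

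A male fly is made of a few bulky tissues and many small ones. The accessory glands, the ejaculatory duct and the ejaculatory bulb secrete the proteins of the seminal fluid, and the testis holds germ cells whose late stages express genes found in no other tissue. Midgut cells secrete proteases and amylases, flight and leg muscles hold large amounts of contractile protein, and the fat body stores lipid and glycogen and secretes blood proteins. The compound eyes carry a signalling cascade of their own. Ovary and female fat body genes, such as those of the eggshell and the yolk, serve here as markers of tissue that a male lacks or uses little.

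The value of a probe set is its signal, a linear intensity, and it was ranked within each array. A percentile of 99 means that 99% of the probe sets of that array had the same or a lower signal. A signal also depends on how well the probes bind, so an order of signals is not an order of transcript numbers. Of the 13966 probe sets, 12443 matched a single gene, and these stand for 10844 genes. Where a gene had more than 1 such probe set, the one with the highest mean signal stands for it. The median signal was 129, 133 and 124 on unexposed 1, 2 and 3, and a probe set entered the top 10% of its array at 861, 781 and 761. The top 1%, which is 140 probe sets, held 16.8%, 17.6% and 17.7% of the summed signal.

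Unexposed 1 stood apart from the other unexposed arrays. Across the 13966 probe sets, the Spearman correlation of signals was 0.700 between unexposed 1 and 2, 0.715 between 1 and 3, and 0.983 between 2 and 3. These coefficients describe probe sets that share their probes and base composition between arrays. The median of 23 control probe sets for bacterial and other foreign transcripts was 81.0 on unexposed 1 against 22.9 and 27.2. The ratio of the 3′ to the 5′ actin control was 5.79 on unexposed 1 against 2.36 and 2.27. The courting array that carries the same number behaved in a similar way, with a foreign control median of 80.1 and an actin ratio of 17.8. Labelling and hybridization took place at either of 2 core facilities, and which arrays went to which is not given in the sources used here. Signals are therefore given array by array, in the order unexposed 1, 2 and 3, and counts in the top 10% of the arrays also for unexposed 2 and 3 alone. The part of these control values in any result was not tested.

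**Figure D1:**
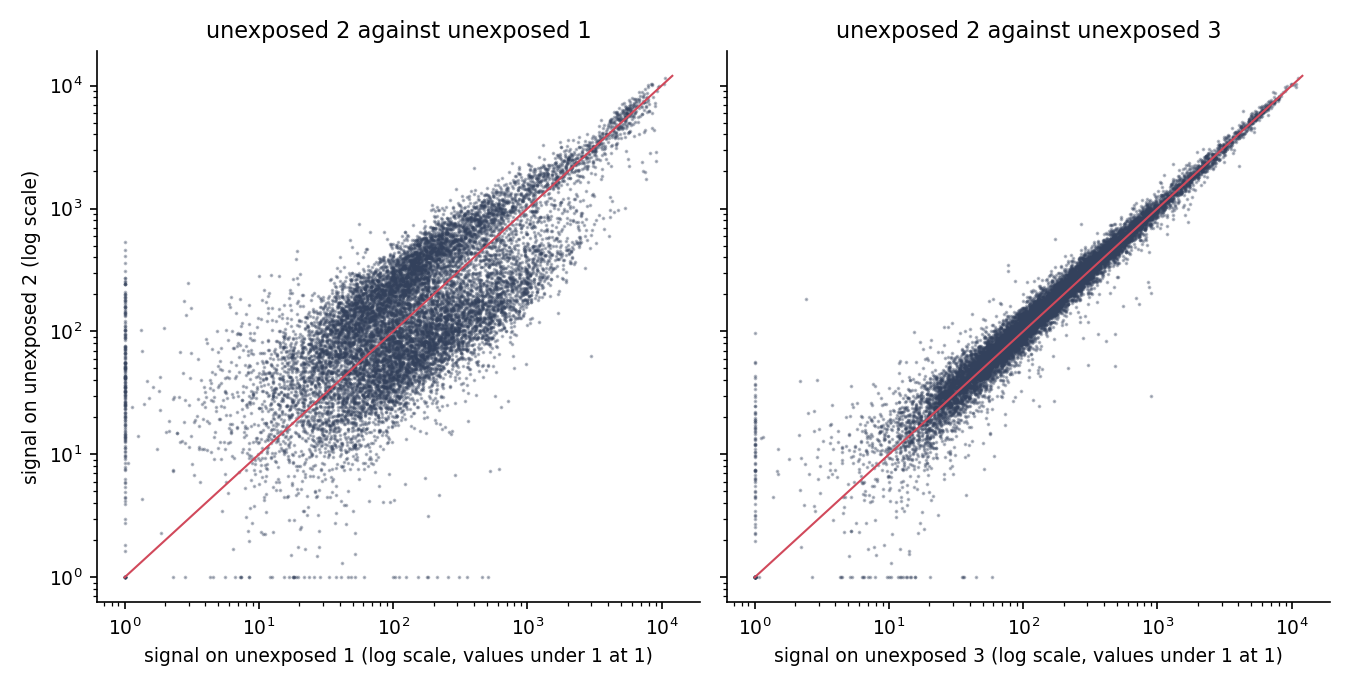
Signal on unexposed 2 (y axis) against unexposed 1 (left) and unexposed 3 (right) for 13966 probe sets, both axes on a log scale with values under 1 drawn at 1; the line marks equal signals. Points lie close to the line on the right, and on the left they form an upper and a lower cloud with fewer points on the line between, which meet near it at the highest signals.

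The highest ranks on unexposed 1 were found again on the other arrays, and the middle ranks were not. Of the 100 probe sets with the highest signal on unexposed 1, 71 were among the top 100 of unexposed 2 and 68 among those of unexposed 3, and all 100 were in the top 10% of both. From unexposed 2 to unexposed 3 the same count was 91. Of the probe sets in the top 1% of unexposed 1, 77.1% stayed in that band on unexposed 2, but of those between the 50th and the 75th percentile only 26.3% stayed in theirs. From unexposed 2 to 3 the corresponding shares were 93.6% and 85.0%. The median absolute log2 difference between unexposed 1 and 2 was 0.19 in the top 1% and 1.10 between the 50th and the 75th percentile. Over the whole range, 52.1% of genes were lower on unexposed 1 than on both others and 42.7% were higher than on both.

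To test which levels differed between replicate numbers, all 6 arrays were fitted with limma, with the replicate number and the treatment as terms, on the 8251 probe sets whose signal reached 100 on 3 or more arrays. A single unexposed array per number gives no spread of its own, so each fold below joins the unexposed and the courting array of a number, and the fit has 2 residual degrees of freedom. At a Benjamini-Hochberg adjusted p under 0.05, 3931 probe sets were higher and 1942 lower in replicate 2 than in replicate 1, together 71.2% of those tested. For replicate 3 against 1 the counts were 3966 and 1955, or 71.8%, and 5714 probe sets were called in both comparisons in the same direction. These comparisons share the replicate 1 arrays. Between replicates 3 and 2, 0 probe sets were called by limma (0.00%), and 27 had an unadjusted p under 0.05. The median log2 difference over all probe sets tested was 0.58 for replicate 2 against 1 and 0.59 for 3 against 1, and after quantile normalization it was 0.27 and 0.28. With no filter the median was 0.22 and 0.21, and 4796 probe sets were higher and 3969 lower in replicate 2 than in 1. The median thus depends on the filter and the normalization. The median absolute log2 difference of the probe sets tested was 1.09 and 1.10, so 0.6 is not a level that most of them share. The filter is not even, since a probe set high on the replicate 1 arrays alone cannot reach 3 arrays. In what follows, percentages in brackets give the same share over all 10844 genes or, for limma calls, over all probe sets tested.

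Among the brightest signals of the male body were those of ribosomal proteins, digestive enzymes, secreted seminal proteins and enzymes of metabolism. In the top 1% on all arrays (0.618%) were 15 of 37 measured ribosomal protein genes and 7 of 44 gut digestive enzyme genes. So were 6 of 70 respiratory chain genes, 3 of 25 accessory gland genes and 2 of 5 duct and bulb genes. Nplp2, which encodes a neuropeptide-like precursor, had signals of 10337, 10394 and 10822 on unexposed 1, 2 and 3 and was at rank 2 on each. Cyp4g1, the oenocyte enzyme that completes the synthesis of cuticular hydrocarbons, had 9469, 9940 and 9289. The accessory gland genes Acp95EF and Mst57Da had 9312, 9781 and 8863 and 8504, 10145 and 9795. MtnA, a metal-binding metallothionein, had 7963, 7778 and 7994, and Gapdh1, a glycolytic enzyme, had 7920, 7497 and 7866. Of these genes, Mst57Da was lower on unexposed 1, and the others varied less among the 3 arrays. The gut trypsin alphaTry was also lower on unexposed 1, with 7536 against 9410 and 9056. Neither Mst57Da nor alphaTry was called in replicate 2 against 1 (adjusted p = 0.0863 and 0.0653 from limma).

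Of the 20 single-gene probe sets with the highest signal on unexposed 1, 9 were also in the top 20 of both other arrays. Much lower on the other arrays were CG34347, with 9138, 2878 and 3072, and rut, an adenylyl cyclase gene of learning and memory, with 9000, 2427 and 2689. The probe sets of both genes share probes with other transcripts by design, so their signals cannot be given to 1 gene with certainty. CG34458, with 7498, 4346 and 4010, also fell, at a log2 difference of -0.80 for replicate 2 against 1 (standard error 0.15, adjusted p = 0.00858 from limma). Genes of antimicrobial peptides were also among the 20. Drs, which encodes the antifungal peptide drosomycin, had 8929, 7189 and 6911, and Mtk, which encodes metchnikowin, had 7989, 6233 and 4308. In the fit, which joins both treatments, Mtk fell by 2.19 on the log2 scale in replicate 3 against 1 (standard error 0.62, adjusted p = 0.0293 from limma). On the courting arrays Mtk had 6853, 2322 and 609, a wider fall than on the unexposed ones. The fitted value is thus not that of unexposed males alone. The limma differences of Mtk between 2 and 1 (adjusted p = 0.220) and between 3 and 2 (adjusted p = 0.99995) were not called. Together 67 genes were in the top 1% on all 3 arrays (0.618%), and 40 of them belong to a list described below. Genes known only by a CG number made up 14 of the 88 genes whose median rank lay in the top 1%, or 15.9%, against 41.3% of all genes.

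**Figure D2:**
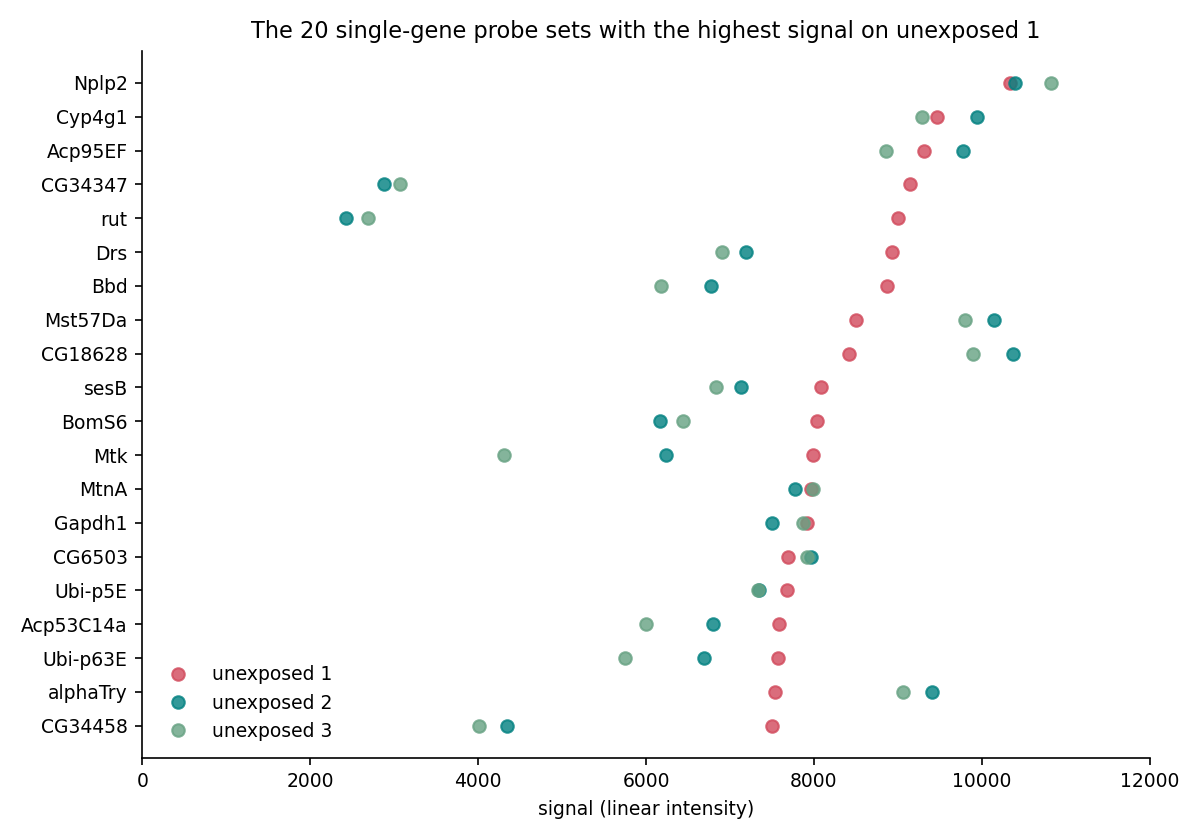
Signal on a linear axis for the 20 single-gene probe sets with the highest signal on unexposed 1, 1 point per array. CG34347 and rut are near 9000 on unexposed 1 and near 3000 or lower on the others, while Nplp2, MtnA and CG6503 nearly coincide.

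Seminal fluid genes ranked near the top of the male body. Of 30 listed accessory gland genes 25 were measured, and 14 of these were in the top 10% on all 3 arrays (6.47%). On unexposed 2 and 3 alone the count was 19 (9.87%). All 25 had a signal of at least 100 on each array (47.6%), and so on unexposed 2 and 3 alone (60.2%). For 14 of the 25, both replicate 1 arrays lay below the other 4 arrays of the series (48%). Their median percentile was 96.8, 97.3 and 96.8. SP, the sex peptide that changes the behaviour of mated females, had signals of 4838, 4680 and 4160. Acp36DE, which is needed for sperm storage, had 4010, 4820 and 4303, and Acp26Aa, which stimulates egg laying, had 2781, 2637 and 2318. These 3 genes differed little between arrays. Some members further down the list behaved otherwise. aqrs, a gene of the network that keeps sex peptide bound to sperm, had 234, 910 and 803 and rose by 2.59 on the log2 scale in replicate 2 against 1 (standard error 0.36, adjusted p = 0.00369 from limma). lectin-46Ca of the same network had 197, 653 and 628 (log2 difference 1.70, standard error 0.16, adjusted p = 0.00197 from limma). The lowest-ranked member, intr, did not rise and had 268, 219 and 183 (log2 difference -0.15, standard error 0.18, adjusted p = 0.466 from limma). In the list 12 genes were higher and 0 lower in replicate 2 than in 1 (47.6% and 23.5% of all probe sets tested), and 11 and 0 in replicate 3.

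The duct and bulb were represented by 5 of 9 listed genes, and 4 of these were in the top 10% on all arrays (6.47%), as on unexposed 2 and 3 (9.87%). EbpII, a protein of the ejaculatory bulb, had 7260, 7488 and 6734. Anp, which encodes the andropin peptide of the ejaculatory duct, had 5968, 5631 and 5841. Gld, a glucose dehydrogenase, was the exception, at 163, 223 and 252.

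Testis genes spanned a wide range. Of 54 listed genes 40 were measured, 15 were in the top 10% on all arrays (6.47%) and 16 on unexposed 2 and 3 (9.87%). A signal of at least 100 on each array was reached by 30 of the 40 (47.6%), and on unexposed 2 and 3 by 32 (60.2%). Among the brightest were structural genes of the sperm tail and chromatin. Mst84Dc, a sperm tail protein gene, had 6127, 5697 and 5101. betaTub85D, the beta tubulin of the male germ line, had 4162, 2833 and 2391, and dj, which encodes the sperm tail protein Don Juan, had 3871, 2512 and 2367. Mst77F, a chromatin protein of the sperm head, had 2319, 2404 and 2280. Among the dimmest were regulators of spermatocyte transcription. aly had 63.9, 27.7 and 25.3, comr had 18.9, 17.5 and 16.6, and can had 38.3, 61.7 and 52.5. All of these lie below the foreign control median of unexposed 1, so their signals on that array are not above those of transcripts no fly makes. bol, a translation regulator of meiosis, had 856, 1698 and 1566 (log2 difference 1.51 for replicate 2 against 1, standard error 0.35, adjusted p = 0.0164 from limma). Among the 32 members tested, 6 were higher and 6 lower in replicate 2 than in 1 (47.6% and 23.5%).

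**Figure D3:**
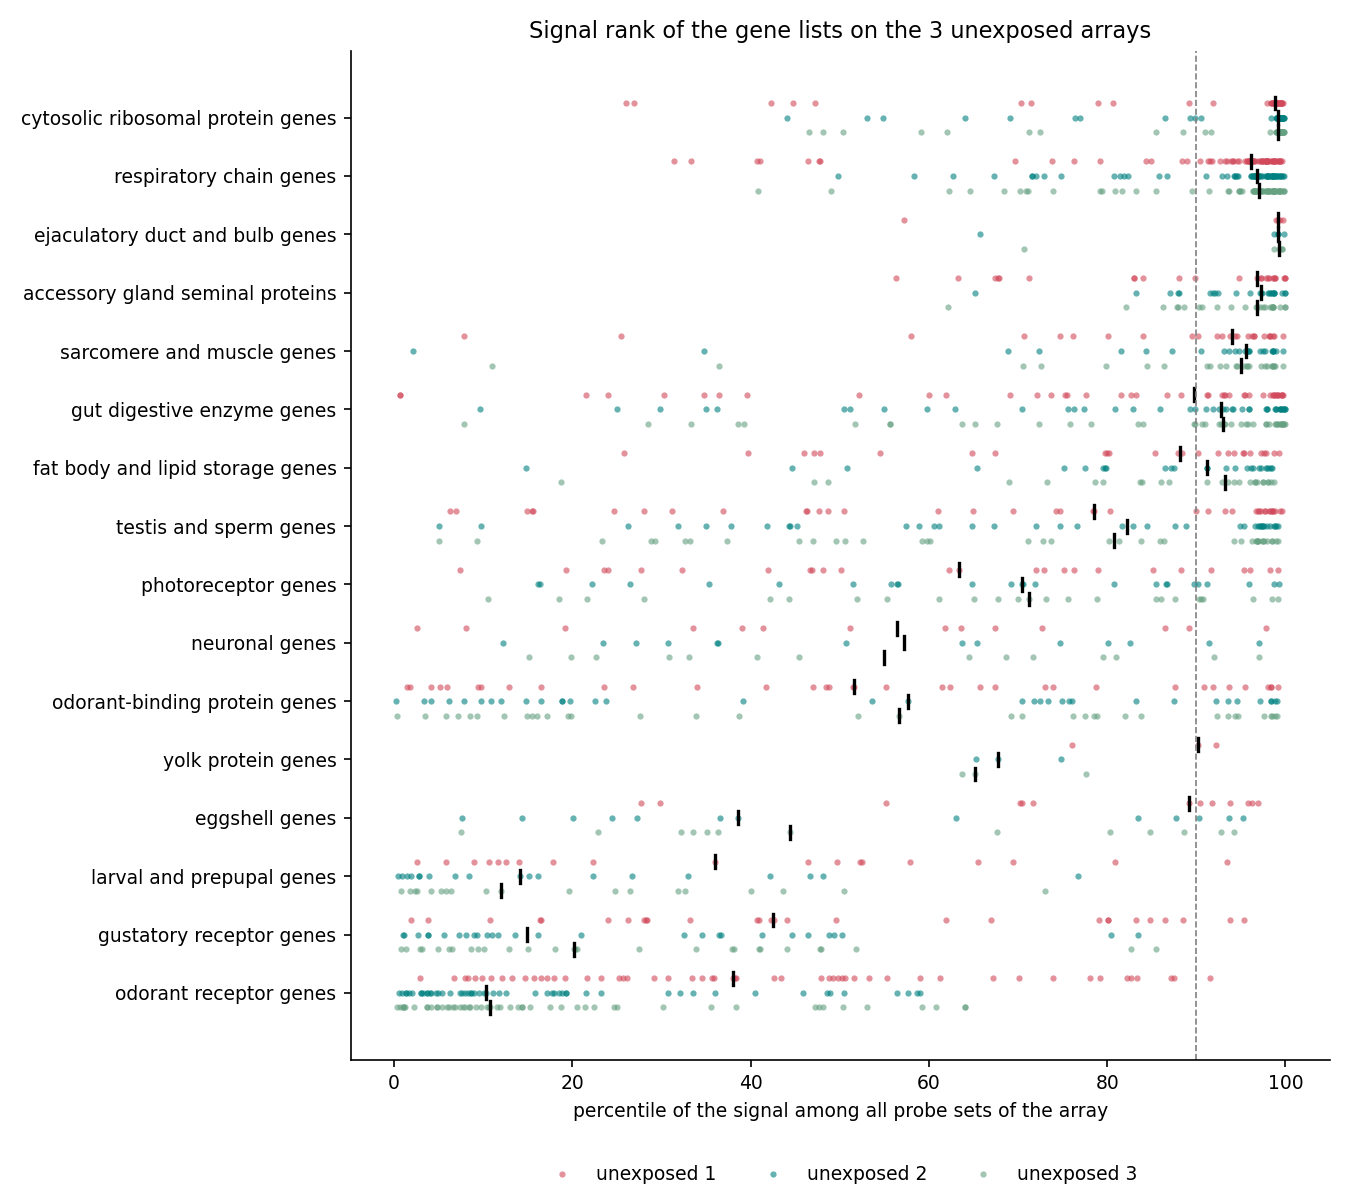
Percentile of each list member's signal (x axis) on unexposed 1, 2 and 3 (colours), by gene list; black ticks are list medians and the dashed line marks the top 10%. Ribosomal, respiratory and seminal lists crowd at the right, and receptor, larval and eggshell lists lie further right on unexposed 1 than on the others.

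Digestive enzymes of the gut spanned nearly the whole range. Of 49 listed genes 44 were measured, 20 were in the top 10% on all arrays (6.47%) and 25 on unexposed 2 and 3 (9.87%). Jon65Aiii, a midgut serine protease, had 7121, 8895 and 7231, and Amy-d, an amylase, had 4699, 5307 and 5055. thetaTry had 323, 1275 and 1247 and rose by 1.55 in replicate 2 against 1 (standard error 0.25, adjusted p = 0.00539 from limma). The maltase Mal-A3 had 95.4, 425 and 464, and rose by 2.57 (standard error 0.24, adjusted p = 0.00194 from limma). Jon44E and Mal-B1 were listed at 0 on unexposed 1 and had 137 and 149 and 135 and 149 on the others. Of the trypsin genes, 9 lie side by side in the Release 6 gene order. The 8 measured ones of this group ranged in median percentile from 51.7 (etaTry) to 99.9 (alphaTry). The 4 neighbours Mst84Da to Mst84Dd of the testis list stayed between 98.3 and 99.1. LysB, LysD and LysE have probe sets that share probes, and their like signals may stand for the same transcripts.

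Muscle genes were bright and even. Of 32 listed genes 26 were measured, 16 were in the top 10% on all arrays (6.47%) and 19 on unexposed 2 and 3 (9.87%). Mlc2, a myosin light chain, had 7321, 7314 and 7040, and up, which encodes troponin T, had 1920, 1919 and 1911. Act88F, the actin of the indirect flight muscles, had 1515, 1882 and 1123. Zasp67 was the lowest, at 21.2, 10.1 and 28.4. A spread under 1.5-fold among the 3 arrays was seen for 18 of the 26 (21.3%), and between unexposed 2 and 3 for 24 (91.7%). Of the 24 tested, 5 were higher and 1 was lower in replicate 2 than in 1 (47.6% and 23.5%). Mhc and the muscle actin Act57B are not analysed here.

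Photoreceptor genes had a median percentile of 63.4, 70.5 and 71.2. Of 36 listed genes 25 were measured, without the rhodopsins, which are not analysed here. In the top 10% on all arrays were 3 of them (6.47%), Arr2, Arr1 and Pdh, and on unexposed 2 and 3 also rtp and trpl, which makes 5 (9.87%). A spread under 1.5-fold among the 3 arrays was seen for 5 of the 25 (21.3%), a share near that of all genes. The arrestins, which end the light response, had 5540, 5858 and 5408 (Arr2) and 4104, 4689 and 4196 (Arr1). The light-gated channel genes had 192, 579 and 539 (trp) and 397, 798 and 800 (trpl). trp rose by 1.62 in replicate 2 against 1 (standard error 0.15, adjusted p = 0.00188 from limma). Other members went the other way. laza, a lipid phosphatase of the cascade, had 1739, 425 and 363 and fell by 2.13 (standard error 0.15, adjusted p = 0.00188 from limma), and rdgA, a diacylglycerol kinase, had 1013, 265 and 279. With unexposed 1 alone, laza and rdgA would stand above trp, and with the other arrays trp stands above both. Among the 19 tested, 10 were higher and 4 lower in replicate 2 than in 1 (47.6% and 23.5%), near the shares over all probe sets.

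Fat body genes had a median percentile of 88.2, 91.2 and 93.2. Of 29 listed genes 26 were measured, 12 were in the top 10% on all arrays (6.47%) and 14 on unexposed 2 and 3 (9.87%). apolpp, the precursor of the main lipid carrier of the blood, had 5825, 4295 and 4556, and the transferrin gene Tsf1 had 4922, 4004 and 4004. FASN1, a fatty acid synthase, had 2765, 3274 and 2823. Obp99b and sxe2, known for sex-specific expression, were lower on unexposed 1. Obp99b had 230, 624 and 1175 and sxe2 had 121, 364 and 472. Obp99b rose by 1.42 in replicate 2 and by 2.30 in replicate 3 against 1 (standard error 0.15, adjusted p = 0.00205 and 0.00183 from limma), and its difference between 3 and 2 was 0.87 (adjusted p = 0.99995 from limma). Fbp1, a larval storage protein receptor, went the other way, at 423, 112 and 113.

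Markers of the ovary and of yolk formation had higher signals on unexposed 1 than on the other arrays. Of 13 measured eggshell genes, 12 were higher on unexposed 1 than on both others (42.7%), and so were all 3 yolk protein genes. For 11 of the 13, both replicate 1 arrays lay above the other 4 arrays of the series (34.6%). Yp1 had 1076, 319 and 341, Yp2 had 876, 241 and 194, and Yp3 had 338, 219 and 204. In replicate 2 against 1, Yp1 fell by 1.81 (standard error 0.16, adjusted p = 0.00188 from limma). The vitelline membrane gene Vm26Aa had 1325, 202 and 225 and fell by 2.42 (standard error 0.20, adjusted p = 0.00188 from limma). The chorion gene Cp38 had 1933, 483 and 391. The eggshell list fell from a median percentile of 89.2 on unexposed 1 to 38.6 and 44.5. Among its 8 members tested, 0 were higher and 5 lower in replicate 2 (47.6% and 23.5%), and 0 and 6 in replicate 3 (48.1% and 23.7%). In the top 10% were 2 of the 13 on all arrays and the same number on unexposed 2 and 3 (6.47% and 9.87%), and 0 yolk protein genes in either case. Some signal remained without unexposed 1. psd had 2473, 1648 and 1311, and Vm32E, with 1027, 1186 and 1029, did not follow the others. The chorion genes differed on unexposed 2 and 3. Cp15 had 802 and 668 there, and Cp19 had 638 and 498. Cp18, Cp36 and Cp16 were lower, with 92.8 and 104, 48.1 and 71.4, and 86.8 and 78.0. The foreign control medians were 22.9 and 27.2.

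**Figure D4:**
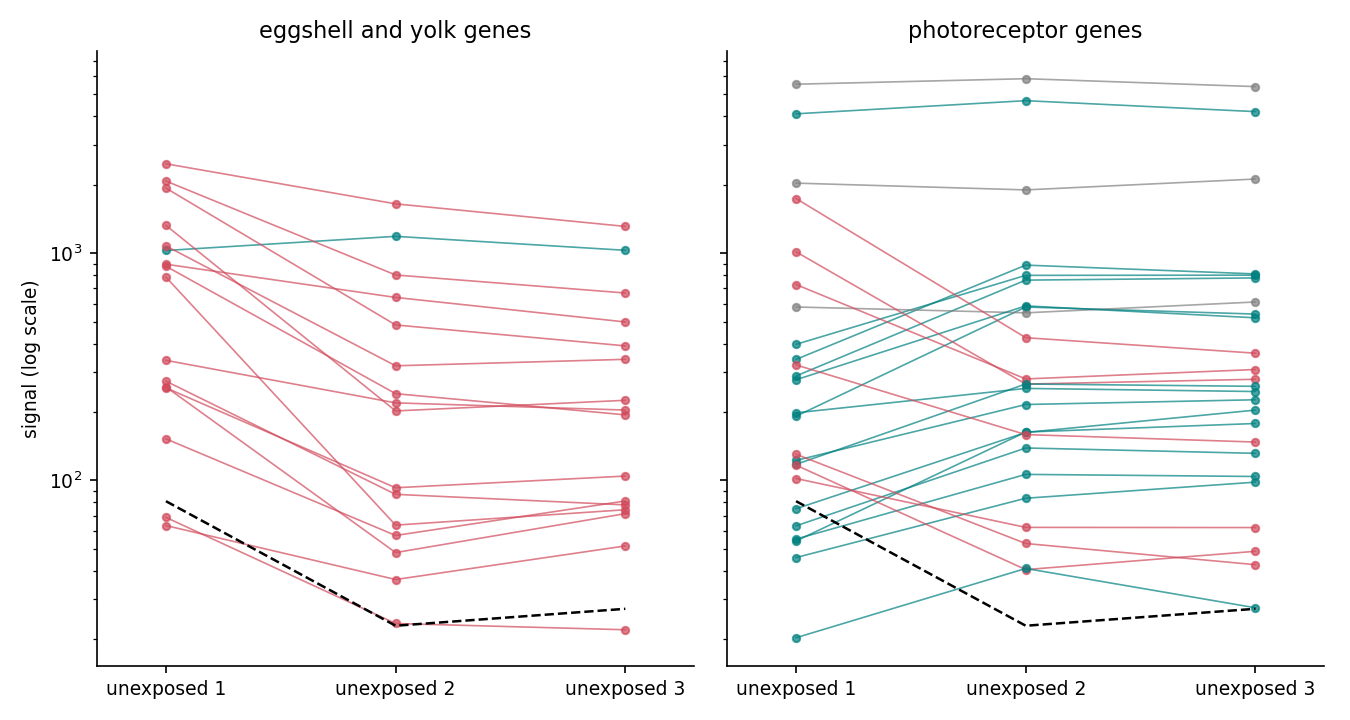
Signal on a log scale of the eggshell and yolk genes (left) and the photoreceptor genes (right) on the 3 unexposed arrays, 1 line per gene, red where unexposed 1 is the highest, teal where it is the lowest and grey otherwise; the dashed line is the median of the foreign control probe sets. All but 1 of the lines on the left fall from unexposed 1, and on the right they go both ways.

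Receptor genes of the antenna and mouthparts moved in the same direction as the eggshell genes. Of 53 measured odorant receptor genes, 51 were higher on unexposed 1 than on both others (42.7%), and the list's median percentile was 38.0, 10.4 and 10.8. None was in the top 10% on all arrays or on unexposed 2 and 3 (6.47% and 9.87%). Or59b had 1008, 169 and 177 and fell by 2.47 in replicate 2 against 1 (standard error 0.16, adjusted p = 0.00188 from limma). On the 3 arrays 24, 18 and 24 of the 53 were below the foreign control median (32.2%, 5.48% and 8.12%). Of 60 listed gustatory receptor genes 28 were measured, and 26 of these were higher on unexposed 1 (42.7%). Gr59b had 1749, 482 and 515. Of 28 listed larval and prepupal genes, known mainly from stages before the adult, 19 were measured. On unexposed 1, 16 of the 19 were higher than on both others (42.7%), and the list's median percentile was 36.0, 14.2 and 12.0. Eig71Ee, the brightest, had 1244, 347 and 278. These shifts move with the foreign control median and the actin ratio of unexposed 1, and the part of either was not tested.

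Odorant-binding proteins are small secreted carriers, and some were among the brightest genes of the body. Of 51 listed genes 35 were measured, 6 were in the top 10% on all arrays (6.47%) and 8 on unexposed 2 and 3 (9.87%). Obp99c had 5563, 5551 and 5307, and Obp56g had 4397, 4969 and 4984. Obp83b, an antennal member, had 216, 966 and 958 and rose by 1.82 in replicate 3 against 1 (standard error 0.21, adjusted p = 0.00243 from limma). Obp47a had 152 on unexposed 1 and was listed at 0 on both others.

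The neuronal, haemocyte and Malpighian tubule lists are short, with 14 of 18, 12 of 13 and 6 of 10 listed genes measured. Their counts in the top 10% thus rest on few genes. The neuronal list had a median percentile of 56.5, 57.2 and 54.9. That of the Malpighian tubule list was 62.2, 80.2 and 81.5. Of 14 neuronal genes 1, the potassium channel gene Sh, was in the top 10% on all arrays (6.47%), with 3495, 2493 and 2425, and 2 were on unexposed 2 and 3 (9.87%). Sh has 4 probe sets, and with the median over the probe sets of a gene 0 neuronal genes were in the top 10%. nSyb, a synaptic vesicle protein gene, had 78.2, 220 and 233, and elav, which marks all neurons, had 6.84, 32.4 and 35.8. None of 12 haemocyte genes was in the top 10% on all arrays or on unexposed 2 and 3 (6.47% and 9.87%). The prophenoloxidase gene PPO1 had 598, 368 and 380. Of 6 genes of the Malpighian tubules 0 were in the top 10% on all arrays (6.47%) and 1 on unexposed 2 and 3 (9.87%). The 5 that were tested were all higher in replicate 2 than in 1 (47.6%), among them the potassium channel gene Irk3, with 69.4, 335 and 326. Lkr, which was too low to be tested, had 60.4, 27.2 and 31.8.

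Of the measured genes that every cell uses, most were in the top 10%. Of 93 listed cytosolic ribosomal protein genes only 37 were measured, so the counts do not cover the family. In the top 10% were 26 of the 37 on all arrays (6.47%) and 27 on unexposed 2 and 3 (9.87%). In the top 1% on all arrays were 15 (0.618%), and the median percentile was 98.9, 99.2 and 99.2. RpS15 had 6309, 7791 and 7700, and RpL32, a common reference gene, had 5826, 6908 and 6616. Of 94 listed respiratory chain genes 70 were measured. Of these, 52 were in the top 10% on all arrays (6.47%) and 54 on unexposed 2 and 3 (9.87%). COX4, a subunit of cytochrome c oxidase, had 5775, 7349 and 7457. Of 12 listed glycolysis genes 8 were measured, with 6 in the top 10% on all arrays (6.47%) and 8 on unexposed 2 and 3 (9.87%).

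Within these lists, many genes whose symbols have the form used for copies were lower than the other members. The split was made after their values were seen, and a symbol alone does not show that a gene encodes a copy of a subunit. Symbols that end in L, or in L and a number, were taken as copies in the respiratory chain (ND-MNLL, the subunit's own name, was not). The 18 such genes had a median percentile of 77.7, 77.8 and 76.6, against 97.4, 97.9 and 98.0 for the 52 others. In the top 10% on all arrays were 2 of the 18 (6.47%), against 50 of the 52. On unexposed 2 and 3 the counts were 3 and 51 (9.87%). Among ribosomal protein genes, symbols that end in -like, in a or b, or in a number after a hyphen were taken. The 13 such genes had a median percentile of 71.5, 77.0 and 72.5, against 99.1, 99.4 and 99.4 for the 24 others. On unexposed 2 and 3 the top 10% held 4 of the 13 and 23 of the 24 (9.87%). On all arrays it held 3 of the 13 (RpL10Ab, RpS28b and RpL37-1) and 23 of the 24 (6.47%). For these 3 the partner in the pair (RpL10Aa, RpS28a and RpL37-2) was not. The exceptions among the others were ND-18, COX7C and RpS29, the last with 436, 774 and 656. ATPsynbeta, the catalytic subunit of the ATP synthase, had 3734, 4748 and 4819, and its duplicate ATPsynbetaL had 990, 281 and 258. The signals of this last pair come from different probe sets, so they do not measure a difference in transcript number. The other comparisons of these groups are by rank on an array.

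**Figure D5:**
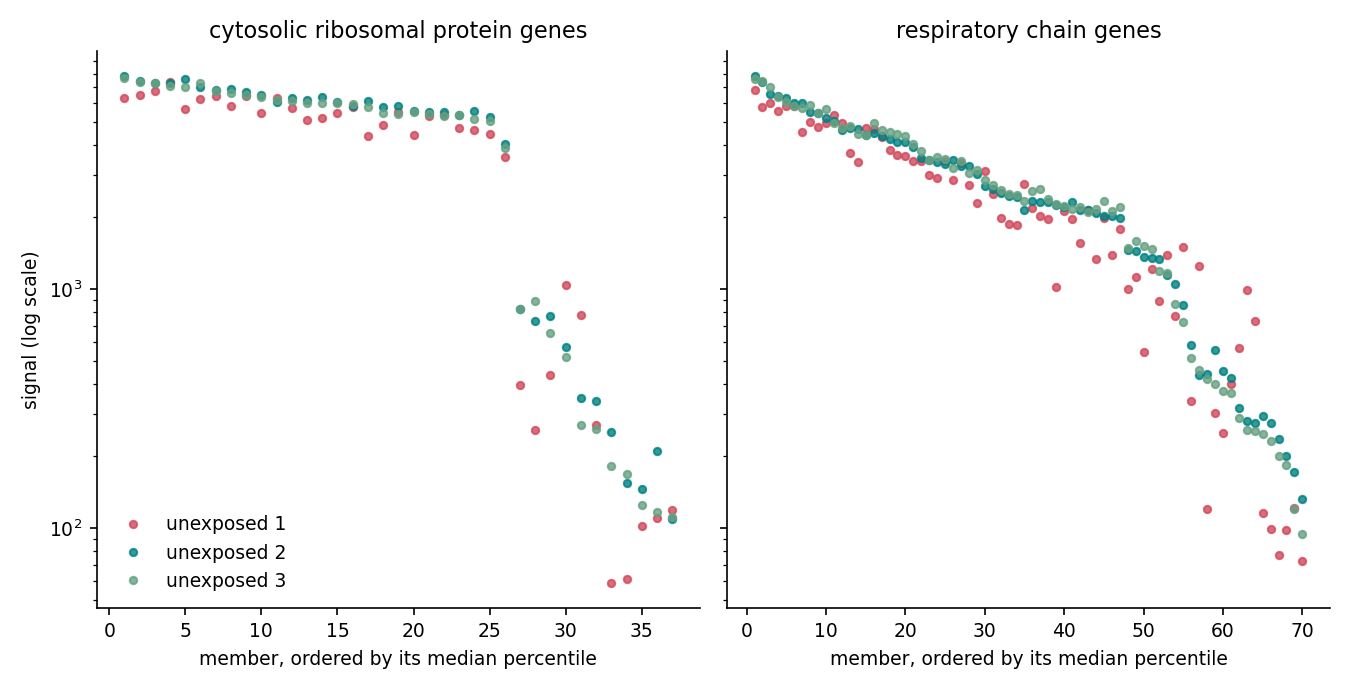
Signal on a log scale of the measured cytosolic ribosomal protein genes (left, 37) and respiratory chain genes (right, 70), ordered by median percentile, 1 point per array. A plateau of high signals is followed by a drop to members of much lower signal, where unexposed 1 departs most from the other arrays.

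The genes with the largest called differences between replicate numbers included some listed at 0 on replicate 1. cass had 0, 532 and 537 on the unexposed arrays, px had 0, 464 and 422, and Pkc98E, a protein kinase C gene, had 0, 407 and 344. Each was also listed at 0 on the courting array of replicate 1, and no fold is given against 0. Of 169 probe sets listed at 0 on both replicate 1 arrays, 28 had at least 100 on all other arrays. In the opposite direction, dati had 773, 101 and 108 and fell by 5.75 in replicate 2 against 1, with a wide error (standard error 1.53, adjusted p = 0.0244 from limma), and it was listed at 0 on courting arrays 2 and 3. The fitted value of dati thus depends on the floor of 1. Tom7, which encodes a subunit of the mitochondrial import pore, had 712, 27.2 and 171 and fell by 4.74 (standard error 1.40, adjusted p = 0.0333 from limma). In replicate 3 against 1, the gustatory receptor gene Gr47a, with 564, 101 and 60.7, fell by 3.99 (adjusted p = 0.00205 from limma). CG31121, with 755, 108 and 27.5, fell by 3.93 (adjusted p = 0.00322 from limma). unc-13-4A had 1695, 142 and 155 and fell by 3.67 in replicate 2 against 1 (standard error 0.15, adjusted p = 0.00118 from limma). Traf4, a signalling adaptor gene, had 1088, 129 and 110 and fell by 3.26 (standard error 0.19, adjusted p = 0.00188 from limma). For both genes the replicate 1 arrays were far above all others.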

How the data were processed

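The values the authors deposited are linear intensities from Affymetrix Drosophila version 1 arrays, with 1 value for each probe set. GCOS 1.2 is named in the submitters' processing notes. The study used 3 expression summaries, made with GCOS and with dChip (with and without the mismatch probes), and which one the intensities hold is not given in the sources used here. Values at exactly 0 occur on every array (195, 49 and 81 on unexposed 1, 2 and 3). A low signal can thus be a failed estimate.

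Gene names came from the platform annotation and were brought up to date through Entrez IDs and the RefSeq table of Release 6. Of 13966 probe sets 12443 matched a single gene and were used to name genes, 327 matched several and 1196 matched none here. Ranks were taken within each array with pandas 2.3.3 in Python 3.11.15. The lmFit and eBayes functions of limma 3.58.1 (R 4.3.3) compared replicate numbers on log2 intensities with signals under 1 set to 1, without further normalization. The code was tested on simulated data. Nothing in the sources says that the arrays of a group come from separate cultures beyond separate pools, so p-values measure the spread between these arrays. Their number limits the precision.

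Of the genes on 21 lists, 494 were measured. The members and lists were chosen with earlier results of these data known. Genes were named by rule: the 20 single-gene probe sets brightest on unexposed 1, up to 8 members of a list (highest, lowest and defining), and up to 5 genes per direction of a replicate contrast. Genes named beyond it, among them further list members and the duplicated subunits, were chosen after their values were seen. Alternatives changed the normalization, the filter, the offset, the variance model, the rank thresholds and the probe set of a gene, and left out each array. Coordinates are left out, since the builds of the array and of the gene table differ.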

Additional observations from a re-analysis of the deposited data

How the results depend on the processing

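List counts mostly held; the exceptions follow. Without replicate 1, the top 10% held 5 photoreceptor, 2 neuronal and 1 Malpighian tubule genes, and 8 neuronal genes reached a signal of 100. With the median over a gene's probe sets 0 neuronal genes were in the top 10%, and in the top 5% there were 0 eggshell genes. At a signal of 200 the counts were 1 larval, 4 haemocyte, 0 odorant receptor and 2 gustatory receptor genes. The share of the highest probe sets shared with unexposed 2 was 56% for the top 50 and 81.6% for the top 500, with unexposed 3 it was 80.8% for the top 500, and between unexposed 2 and 3 it was 91% of the top 100. Probe sets called between replicates 2 and 1 ranged from 3778 (without unexposed replicate 2) to 5827 when 1 array was left out, and from 3682 (without exposed replicate 3) to 5824 between 3 and 1. With no filter 8889 were called between 3 and 1. A filter of 100 on all 6 arrays, chosen after seeing the data, gave 3744 and 3799. Quantile normalization moved the split of calls between 2 and 1 from 3931 higher and 1942 lower to 3117 and 2280, and median centring to 3463 and 2337.

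Log2 differences were followed for 41 named genes, picked after their values were seen, of which 36 were called. Of 978 values under alternatives, 921 kept direction and call, 40 lost the call, 4 gained it and 13 changed sign. The sign changes were all in Arr2, SP, Mlc2 and Gapdh1, which were not called. Median centring gave -0.10 and -0.17 for Arr2, -0.071 and -0.098 for Mlc2 and -0.14 and -0.0805 for Gapdh1 (replicates 2 and 3 against 1). With 1 array left out, values ranged for Arr2 from -0.010 to 0.18 (3 against 1) and for SP from -0.077 to 0.069, with 0.0027 without exposed replicate 2 (2 against 1). They ranged for Mlc2 from -0.016 to 0.38 (2 against 1) and from -0.042 to 0.35 (3 against 1), and for Gapdh1 from -0.073 to 0.31 and from -0.016 to 0.36. For Arr2, Mlc2 and Gapdh1 the lowest values were those without exposed replicate 1. The cause of these changes was not tested. No paired analysis was possible because the comparison was between the replicate numbers themselves and no treatment contrast was made.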
